A study of Mus musculus with 6 samples.

Results

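The C1q-like genes C1ql1, C1ql2 and C1ql3 and the cerebellin genes Cbln1, Cbln2, Cbln3 and Cbln4 were examined in the adult mouse hippocampus. These 7 genes were chosen by name, as secreted synaptic organizers with a C1q domain, out of the 55471 genes in the deposited count table, and all 7 were found in it. RNA-seq had been performed on the hippocampus of 3 p300-ifKO mice and 3 control mice of the C57BL/6 strain (C57BL/6J per the methods), 1 library per mouse, aged 3 to 6 months and male per the methods of the study. p300-ifKO mice carried floxed Ep300, the gene for the acetyltransferase p300, and the tamoxifen-inducible recombinase Camk2a_creERT2, which is active in excitatory neurons of the forebrain, so that other cells of the tissue kept Ep300. Mice of both groups received 5 tamoxifen administrations (20 mg/mL in corn oil). The protocol and the methods of the study describe controls as littermates that lack creERT2, but Camk2a_creERT2 is named in the descriptions of all 3 control libraries.

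C1q-like proteins and cerebellins are small secreted proteins that assemble into multimers and bridge the synaptic cleft. Cerebellins bind neurexins on the axon and delta-type glutamate receptors on the dendrite, and C1q-like proteins bind the adhesion receptor Bai3 and, at the mossy fiber synapses of the hippocampus, kainate receptors together with neurexin 3. Cbln1 is best known from the parallel fiber synapses of the cerebellum, and C1ql2 and C1ql3 from the granule cells of the dentate gyrus, whose axons are the mossy fibers.

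The family was led by the C1q-like genes in these hippocampi. Levels were compared between genes as TPM (transcript abundance scaled to the same total in each library), computed from the counts and the exonic length in the deposited table. C1ql2 was highest, at 152 ± 21.5 TPM (SD, n = 6), between 124 and 177 TPM, a level above that of 98.1% of all genes. C1ql3 followed at 72.6 ± 26.5 TPM (SD, n = 6), between 26.7 and 92.5 TPM. C1ql1, which in the cerebellum organizes climbing fiber synapses, had 16.8 ± 2.49 TPM (SD, n = 6).

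Among the cerebellins, Cbln4 and Cbln2 stood together, at 13.6 ± 3.51 and 13.3 ± 2.01 TPM (SD, n = 6). Cbln1 had 4.56 ± 1.53 TPM (SD, n = 6). Cbln3, which is secreted only together with Cbln1, was lowest at 0.546 ± 0.13 TPM (SD, n = 6), above 65.6% of all genes. In this order the ranges over the 6 mice overlapped for the neighbors C1ql1 and Cbln4, with C1ql1 higher in 5 of 6 libraries, and for Cbln4 and Cbln2, with Cbln4 higher in 3 of 6 libraries. All other neighbors were separated in 6 of 6 libraries. The further C1q-like gene C1ql4 had between 0 and 4 reads per library and was at the limit of detection, and no fold change is given for it.

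**Figure D1:**
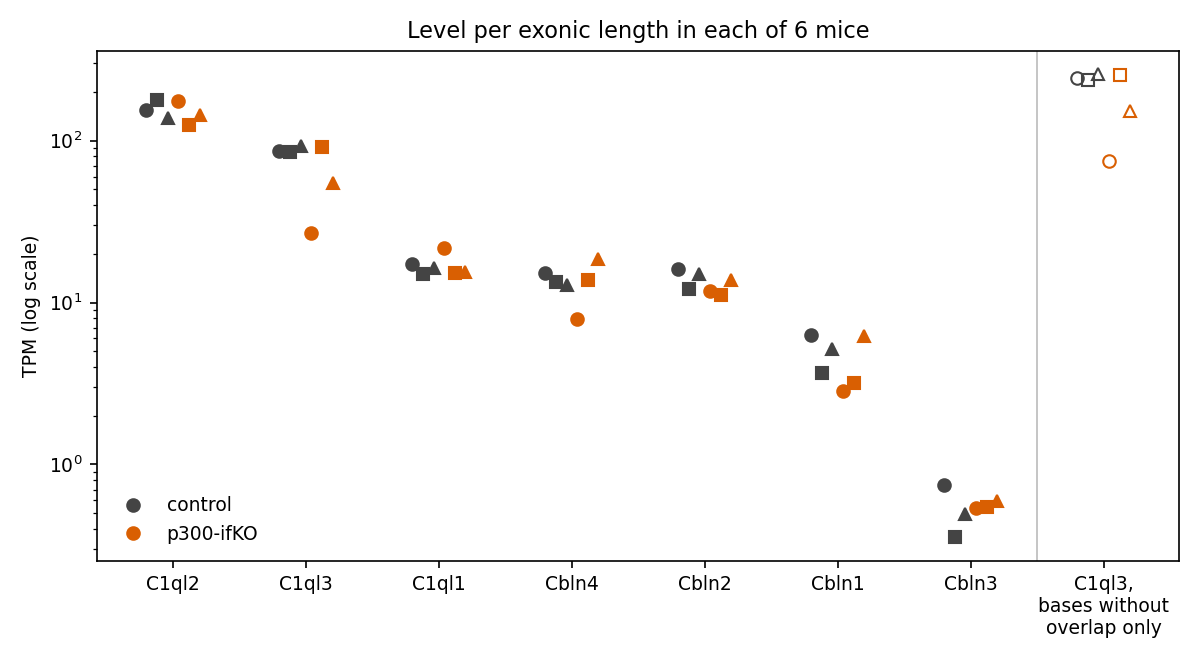
Level of each gene in TPM on a log axis, 1 point per mouse (gray, control; orange, p300-ifKO; circles, squares and triangles are replicates 1, 2 and 3). C1ql2 lies between 124 and 177 TPM and Cbln3 between 0.354 and 0.752 TPM; the open symbols at the right give C1ql3 per length of the 908 exonic bases that no other gene overlaps.

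The position of C1ql3 next to C1ql2 depended on the length used. C1ql3 (ENSMUSG00000049630, chromosome 2, 13003457 to 13011806, minus strand, GRCm38) has 2535 exonic bases, of which 1627 are also covered by Gm37824 and Gm37811, annotated on the opposite strand. The strand setting of the counting was not given in the sources used here, so reads from this stretch may have been assigned to C1ql3, to the overlapping genes or to none. If only the 908 bases without overlap had yielded counts, C1ql3 would have stood at 242, 236 and 258 TPM in controls and at 74.5, 254 and 152 TPM in p300-ifKOs, above C1ql2 in 5 of 6 libraries. The comparison of normalized counts of C1ql3 between mice rests on the same gene model in every library and does not need this length. The classes and fits by exonic length below use its full 2535 bases.

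C1ql2 (ENSMUSG00000036907, chromosome 1, 120340582 to 120343174, plus strand) has 2000 exonic bases, 63.3% of them G or C, and shares no stretch of 50 bases, the read length, with exons of another gene. C1ql1 (ENSMUSG00000045532, chromosome 11, 102939264 to 102946688, minus strand) was the shortest and richest in G and C, with 1473 exonic bases and 65.8%. The cerebellins were less rich in G and C, from 48.5% in Cbln2 to 56.2% in Cbln1 (ENSMUSG00000031654, chromosome 8, 87468405 to 87472609, minus strand). Cbln3 (ENSMUSG00000040380, chromosome 14, 55878913 to 55884392, minus strand) shared 1.87% of its stretches with other exons. Cbln4 (ENSMUSG00000067578, chromosome 2, 172036233 to 172043466, minus strand) lies on the same chromosome as C1ql3 and shared none.

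Because p300 and its paralogue CBP are coactivators of the transcription factor CREB, the promoters were read for its binding motif, the cAMP response element (CRE). RefSeq promoter sequences (GRCm38.p6) matched 4 of the 7 genes, and in 2 of these, C1ql2 and Cbln4, the window ended at the annotated start of the gene. The 250 bases before the start of these 2 genes, which differ in the motif, are shown 5′ to 3′ on the strand of the gene, with the core CRE in capitals (CGTCA, the complement of TGACG).
C1ql2, chr1:120340332-120340581, plus strand: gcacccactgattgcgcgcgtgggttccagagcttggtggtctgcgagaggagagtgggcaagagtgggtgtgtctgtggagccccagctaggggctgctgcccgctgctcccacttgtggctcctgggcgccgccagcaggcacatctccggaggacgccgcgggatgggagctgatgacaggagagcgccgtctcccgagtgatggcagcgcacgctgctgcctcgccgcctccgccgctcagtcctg
Cbln4, chr2:172043467-172043716, minus strand: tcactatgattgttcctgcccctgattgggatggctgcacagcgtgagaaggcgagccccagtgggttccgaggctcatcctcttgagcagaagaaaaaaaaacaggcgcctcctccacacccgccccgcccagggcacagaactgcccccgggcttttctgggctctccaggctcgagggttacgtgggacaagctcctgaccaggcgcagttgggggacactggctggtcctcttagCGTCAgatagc
The C1ql2 window, 68.8% G or C, held no CRE letters, and the Cbln4 window, 60.8% G or C, held the core CRE starting 11 bases before the start. Over the full windows of 4 genes and on both strands, the full CRE (TGACGTCA) was found in 0 of 4, beside 1.55% of all 32851 promoter windows. The core CRE (TGACG), part of the full motif, was found in Cbln4 only, beside 17.8% of all windows. The GC box (GGGCGG) was found in C1ql3 and Cbln4, with 2 matches each, beside 32.7% of all windows. The AP-1 motif (TGANTCA), the TATA motif (TATAAA) and the E-box (CACGTG), present in 6.75%, 12.4% and 6.02% of all windows, had 0 matches in the 4 genes. The C1ql3 window lay inside the annotated gene and the Cbln3 window partly so, so that their bases are not all upstream of the annotated start. All of these counts are matches of letters in short windows, and binding was not measured.

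The libraries held between 23151568 and 28433823 counts. The targeted gene was lower in each p300-ifKO library than in any control library: Ep300 had 1545, 1474 and 2334 normalized counts (counts divided by the DESeq2 size factor) in controls and 478, 1350 and 912 in p300-ifKOs. Its log2 fold change was −0.97, with an SE of 0.33 and, in DESeq2, an adjusted p of 0.991. The count per gene does not resolve the floxed exon, and p300-ifKO replicate 2 lay close to the lowest control. Crebbp, the gene for CBP, had 2084 ± 98.2 normalized counts (SD, n = 3) in controls and 2006 ± 48.9 (SD, n = 3) in p300-ifKOs.

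Whether loss of p300 in excitatory neurons altered the family was asked gene by gene. None of the 7 genes showed a difference between groups that exceeded the spread between mice in the test used. In the DESeq2 Wald test, 0 of 7 passed an adjusted p of 0.05 and 0 of 7 an unadjusted p of 0.05, beside 0.0061% and 1.32% of the 32773 genes tested. The edgeR and limma-voom tests also called 0 of 7. The targeted gene Ep300 did not pass in them either, with an adjusted p of 0.745 in edgeR and 0.748 in limma-voom. The share of all genes that these tests called is not given here. The values of the groups overlapped for each of the 7 genes, whereas across all genes the p300-ifKO values lay entirely below the control values in 3.42% and entirely above them in 3.21%. The log2 fold change was negative for 5 genes and positive for 2, with a median of −0.015, beside −0.046 over all genes tested. In bulk tissue, fewer cells of a type and less RNA per cell cannot be told apart.

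**Figure D2:**
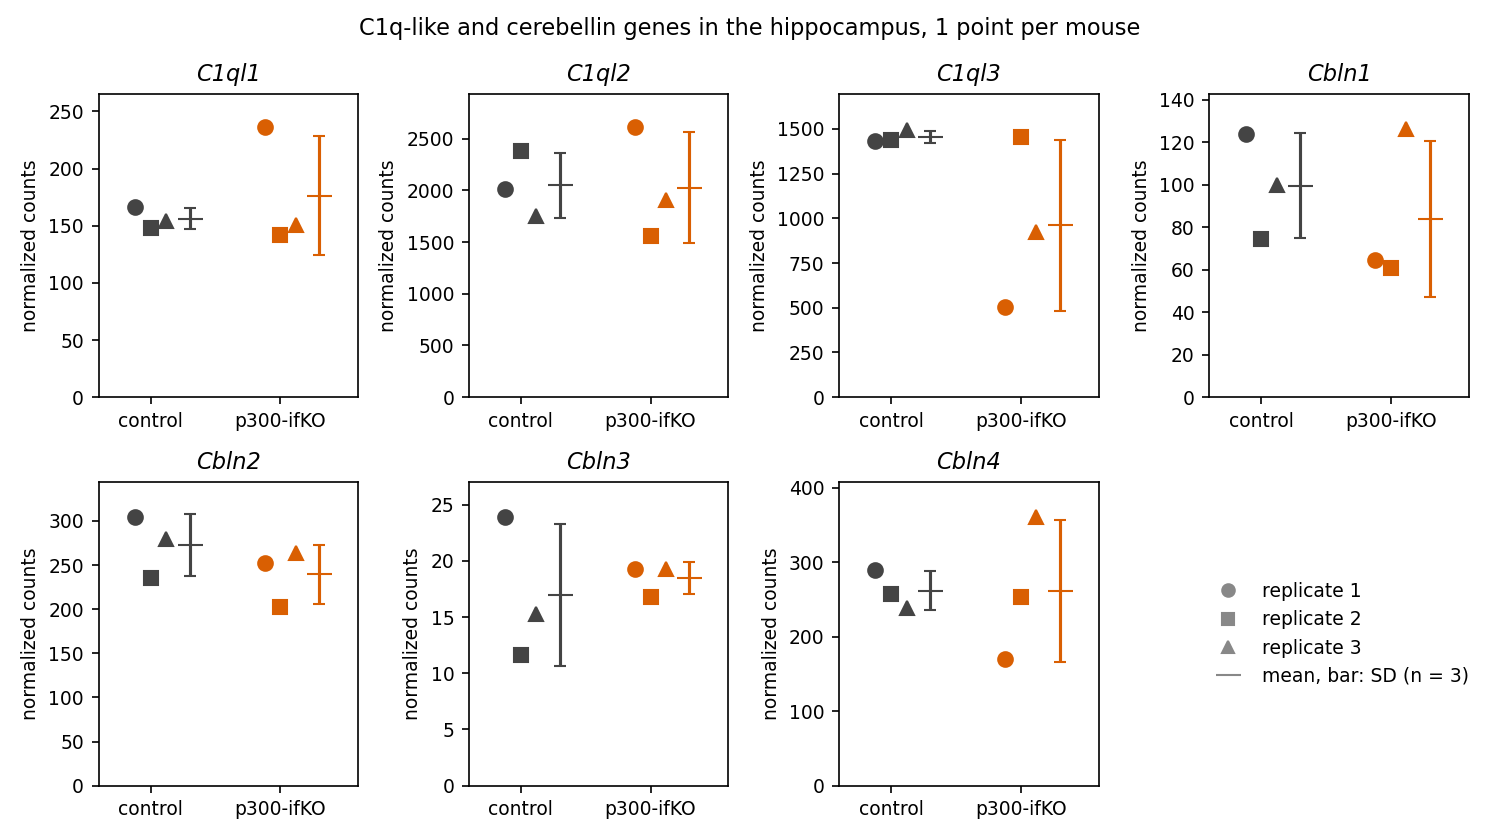
Normalized counts of the 7 genes, 1 point per mouse, with the mean and SD of each group (n = 3) beside the points and axes that start at 0. The groups overlap in every panel, and C1ql3 has the tightest control group, 1434 to 1493, and a p300-ifKO group from 503 to 1454.

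C1ql3 came nearest to a difference. It had 1434, 1438 and 1493 normalized counts in controls and 503, 1454 and 923 in p300-ifKOs. Replicates 1 and 3 of the p300-ifKO group lay below all 3 controls, and replicate 2 lay among them. Controls averaged 1455 ± 32.9 and p300-ifKOs 960 ± 477 normalized counts (SD, n = 3). DESeq2 gave C1ql3 a log2 fold change of −0.60 (SE 0.31), a 95% interval from −1.21 to 0.01 and a p of 0.0548 before and 0.991 after adjustment.

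The C1ql3 result turned on p300-ifKO replicate 2. Without this library DESeq2 gave a log2 fold change of −1.03 (adjusted p 0.00343), and C1ql3 was the only one of the 5 members given an adjusted p to pass. In that fit 3.79% of the 11726 genes with an adjusted p were called lower. Without p300-ifKO replicate 1 the log2 fold change was −0.29, and without any other single library it was between −0.61 and −0.57, with an adjusted p of 0.991 or more. The order of the p300-ifKO libraries in C1ql3, with replicate 1 lowest and replicate 2 highest, was also that of Ep300, at 478, 912 and 1350 normalized counts, and of 39.5% of the 12253 genes with a mean of at least 100 normalized counts. A surrogate variable, which sva estimates from the counts as a difference between libraries beyond the groups, was at −0.822, −0.123 and 0.323 in replicates 1, 3 and 2 and so ranked the libraries alike. In control replicates 1, 2 and 3 it was at 0.106, 0.0843 and 0.432, so that it was partly aligned with the groups. A fit that includes this variable can therefore also take out part of a difference between groups.

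**Figure D3:**
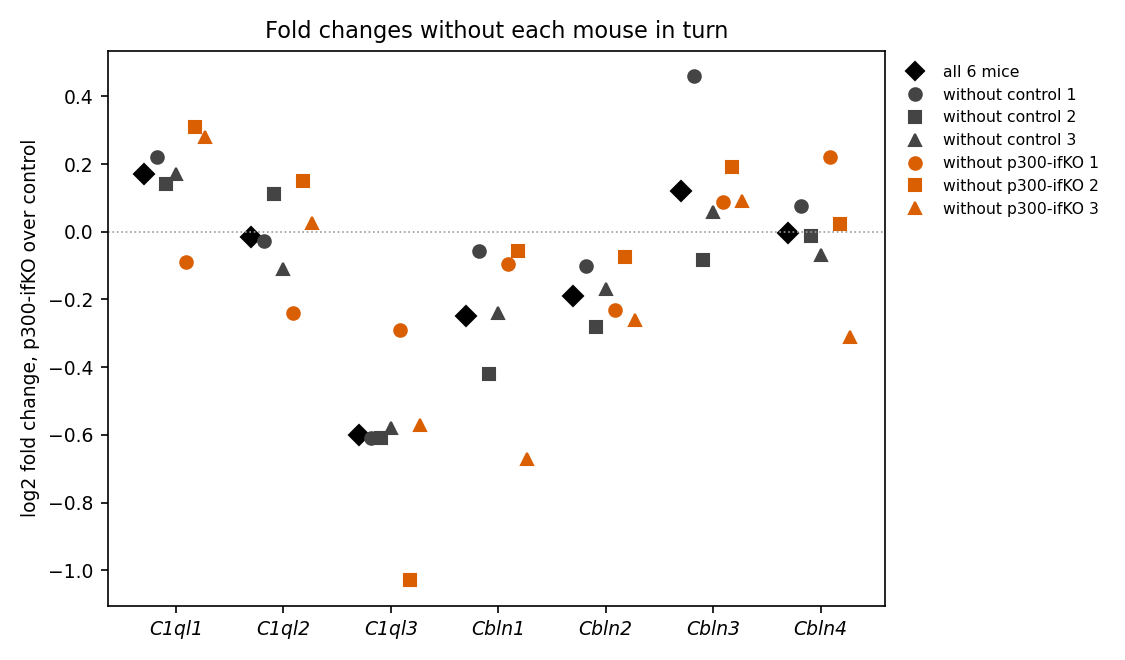
Log2 fold change of p300-ifKO over control for each gene with all 6 mice (diamonds) and without each mouse in turn (gray, a control mouse left out; orange, a p300-ifKO mouse left out). C1ql3 stays below 0 throughout, from −1.03 to −0.29, and C1ql1, C1ql2, Cbln3 and Cbln4 lie on both sides of 0.

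The overlapping gene Gm37824 had few reads and the same order of p300-ifKO libraries as C1ql3, with 78.5, 67.2 and 94.9 normalized counts in controls and 12.9, 81.3 and 36.6 in p300-ifKOs. Its log2 fold change was −0.87 (SE 0.52, unadjusted p 0.0961 and adjusted p 0.991 in DESeq2). Gm37811 had between 13.7 and 26.8 normalized counts, with no such order. Without a stated strand setting, reads of C1ql3 and of its antisense partners cannot be told apart.

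C1ql2 had nearly the same average in both groups and a wide spread in each. It had 2014, 2379 and 1754 normalized counts in controls and 2615, 1561 and 1909 in p300-ifKOs, so that p300-ifKO mice gave both the highest and the lowest value. In TPM, control replicate 2 was highest, at 177, beside 176 in p300-ifKO replicate 1. Controls averaged 2049 ± 314 and p300-ifKOs 2028 ± 537 normalized counts (SD, n = 3). The fold change of C1ql2 on the log2 scale was −0.015 (SE 0.22), with a 95% interval from −0.44 to 0.41 (adjusted p 0.997 in DESeq2). The value ranged from −0.24 without p300-ifKO replicate 1 to 0.15 without p300-ifKO replicate 2, and with 1 surrogate variable it was −0.32 (adjusted p 1).

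C1ql1 had 166, 148 and 154 normalized counts in controls and 236, 142 and 151 in p300-ifKOs. A single p300-ifKO mouse, replicate 1, was higher than all others, whereas replicate 2 lay below and replicate 3 within the control range. Controls averaged 156 ± 9.12 and p300-ifKOs 177 ± 51.8 normalized counts (SD, n = 3), and the log2 fold change was 0.17, with an SE of 0.25 and, in DESeq2, an adjusted p of 0.991, with a 95% interval from −0.31 to 0.66. Without p300-ifKO replicate 1 it was −0.090.

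The cerebellins were measured with fewer reads than C1ql2 and C1ql3. Cbln2 (ENSMUSG00000024647, chromosome 18, 86711110 to 86718283, plus strand) varied least over the 6 mice, with 304, 235 and 279 normalized counts in controls and 252, 202 and 264 in p300-ifKOs, and DESeq2 gave a log2 fold change of −0.19 with an SE of 0.19, an adjusted p of 0.991 and a 95% interval from −0.57 to 0.19. Cbln4 had 290, 258 and 238 normalized counts in controls and 170, 253 and 361 in p300-ifKOs. The p300-ifKO values of Cbln4 thus lay below, within and above the control range, and the log2 fold change was −0.0052, with an SE of 0.27 and, in DESeq2, an adjusted p of 0.997, with a 95% interval from −0.54 to 0.53.

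Cbln1 had 124, 74.6 and 100 normalized counts in controls and 64.4, 61.0 and 126 in p300-ifKOs. Replicates 1 and 2 of the p300-ifKO group were below the controls and replicate 3 was above them. The log2 fold change of Cbln1 was −0.25, with an SE of 0.35 and, in DESeq2, an adjusted p of 0.991, with a 95% interval from −0.94 to 0.44. Cbln3 had 24, 11 and 15 reads in controls and 18, 19 and 20 reads in p300-ifKOs. The exact Poisson 95% intervals of these counts, which cover counting error only, all overlapped, from 5.49 to 19.7 reads at the lowest count and from 15.4 to 35.7 reads at the highest. The log2 fold change of Cbln3 was 0.12, with an SE of 0.49 and, in DESeq2, an adjusted p of 0.991. Its 95% interval, from −0.84 to 1.09, included changes in either direction.

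**Figure D4:**
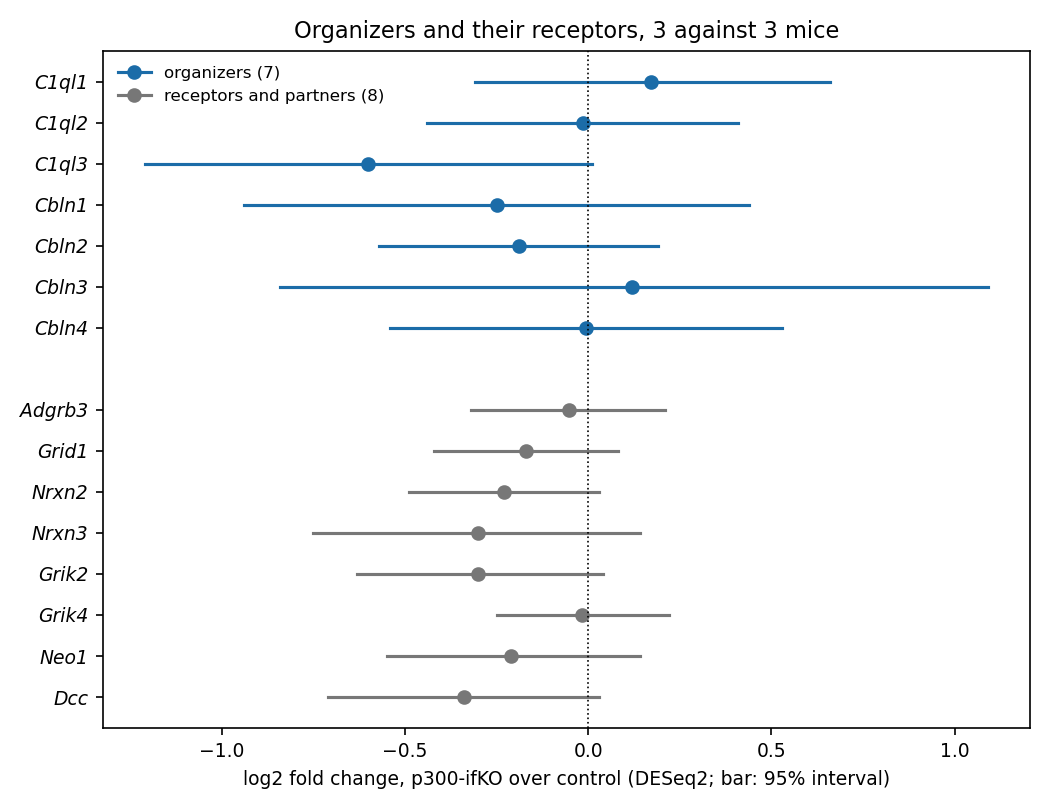
Log2 fold change of p300-ifKO over control in DESeq2 with its 95% interval, for the 7 organizers (blue) and 8 receptors and partners (gray), 3 mice per group. Every interval includes 0; that of C1ql3, from −1.21 to 0.01, does so by the least of the 7 organizers, and the 8 receptors and partners all have values below 0.

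The genes differed in how steady they were among the 3 control mice. The coefficient of variation of C1ql2 was 15.3%, larger than that of 94.1% of the 2574 genes within 1.5-fold of its level, whose median was 5.95%. That of C1ql3 was 2.26%, larger than in only 9.98% of 2936 such genes. C1ql1 was likewise steady, at 5.84% against a median of 10.8%. Cbln1 and Cbln2 varied more than most genes of their level, at 24.9% and 12.8% against medians of 13.2% and 9.03%, and Cbln4, at 10.1% against 9.15%, was near the middle. Cbln3, with the fewest reads, varied by 37.3% against 26.3%. In the p300-ifKO group, the coefficient of variation was 49.7% for C1ql3, 36.7% for Cbln4 and 29.3% for C1ql1, and the difference in spread between groups was not tested.

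The share of the family taken by C1ql3 varied widely between mice. C1ql2 took 52, 57.9 and 49.1% of the summed TPM of the 7 genes in controls and 71.2, 47.8 and 56.7% in p300-ifKOs. C1ql3 took 29.2, 27.6 and 33% in controls and 10.8, 35.2 and 21.6% in p300-ifKOs. The ratio of C1ql3 to C1ql2 was 0.562, 0.477 and 0.671 in controls and 0.152, 0.735 and 0.382 in p300-ifKOs, so that p300-ifKO replicate 2 had the highest ratio of all 6 libraries and replicate 1 the lowest. On the 908 bases without overlap, C1ql3 would have taken 53.6, 51.6 and 57.8% in controls and 25.2, 60.2 and 43.5% in p300-ifKOs, and the ratio would have been 1.57, 1.33 and 1.87 against 0.423, 2.05 and 1.06, with the same library highest and the same lowest.

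The summed TPM of the 7 genes was 297, 306 and 280 in controls and 247, 258 and 252 in p300-ifKOs, which did not overlap. The sums of the C1q-like genes were likewise apart, at 258, 277 and 247 TPM against 224, 230 and 213 TPM, whereas the cerebellins overlapped, at 38.5, 29.4 and 33.7 TPM against 23, 28.6 and 39.1 TPM. The sums of normalized counts of the 7 genes did not overlap either, at 4357, 4545 and 4033 against 3860, 3689 and 3753. The low libraries differed between genes, with C1ql3 low in p300-ifKO replicates 1 and 3 and C1ql2 lowest in replicate 2. The sums are a description of genes chosen by name, without a test. Each of the 7 genes alone had overlapping groups. As single genes, 3.42% of all genes lay entirely below the controls, and how often sums of like sets do so was not counted.

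The libraries differed in a trend with exonic length, shown here beside the values of the family. Among genes of 1500 bases or less with a mean of at least 100 normalized counts, the median log2 ratio to the control mean was 0.72, −0.11 and 0.22 in p300-ifKO replicates 1, 2 and 3, and among genes over 8000 bases it was −0.43, 0.05 and −0.15. C1ql1, in the shortest class, was at 0.60, −0.13 and −0.04. In normalized counts, replicate 1, with the strongest trend, was the library with the highest C1ql1 and C1ql2 and the lowest C1ql3. In the class from 1500 to 3500 bases, which holds C1ql2, C1ql3, Cbln1, Cbln2 and Cbln4, the median log2 ratios of these 3 libraries were 0.35, −0.05 and 0.11. C1ql2, at 0.35, −0.39 and −0.10, met the class median in replicate 1 and was at or above only 1.56% of the 3267 genes in replicate 2. C1ql3, at −1.53 in replicate 1 and −0.66 in replicate 3, was at or above only 0.673% and 0.459% of the genes of its length class there, and at or above 67.5% of them in replicate 2.

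**Figure D5:**
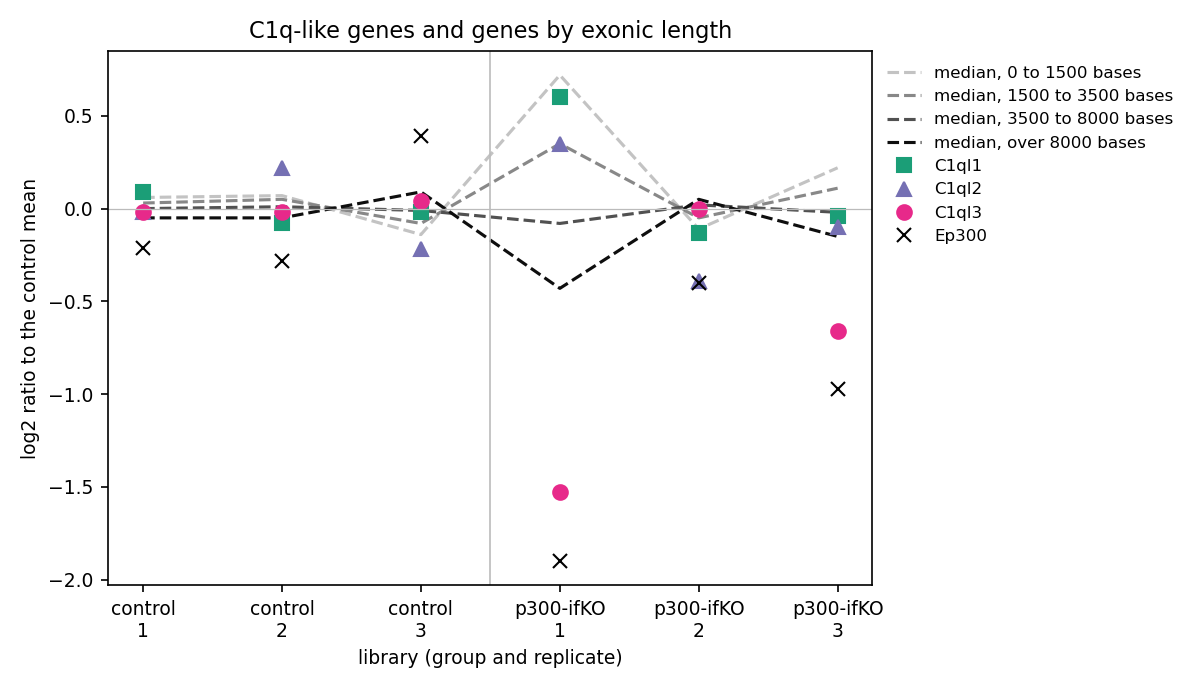
Log2 ratio to the control mean in each library for C1ql1, C1ql2, C1ql3 and Ep300 (symbols) and the median of 4 classes of genes by exonic length (dashed lines). In p300-ifKO replicate 1 the class medians run from 0.72 for the shortest genes to −0.43 for the longest, C1ql2 lies on the median of its class at 0.35, and C1ql3 lies at −1.53.

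With length offsets in the fit, the log2 fold change of C1ql3 was −0.63 (adjusted p 0.941 in DESeq2) and with length and GC offsets −0.64 (adjusted p 0.954). With 1 surrogate variable it was −0.23 (unadjusted p 0.0522 and adjusted p 1 in DESeq2). C1ql2 moved further, from −0.015 to −0.32 with 1 surrogate variable (unadjusted p 0.000383 and adjusted p 1 in DESeq2; unadjusted p 0.0012 in edgeR), to −0.13 with length offsets and to −0.24 with length and GC offsets (unadjusted p 0.0828). The surrogate variable fit called 0 of the 7 genes, beside 0.00915% of all genes, and gave Ep300 a log2 fold change of −0.49 with an adjusted p of 0.00322. C1ql1, positive with all mice and no offset, was −0.087 with length and GC offsets and −0.11 with 1 surrogate variable.

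For the 5 organizers with at least 100 normalized counts on average, the genes with the most similar profile over the 6 libraries were sought among 12248 others, by the root mean square difference of mean-centered log2 values. The nearest profile to C1ql3 was that of Cdh2, which encodes N-cadherin, with a difference of 0.0871. Cdh2 had 1813, 1751 and 1993 normalized counts in controls and 668, 2050 and 1343 in p300-ifKOs, and next came the protocadherin Pcdhga5, at 0.0936. C1ql2 was nearest to Thrsp, at 0.0582, which had 756, 963 and 710 normalized counts in controls and 1088, 621 and 713 in p300-ifKOs, and then to Gm11266, at 0.0637. C1ql1 was nearest to Gpatch4 and Crip2, at 0.0405 and 0.0427.

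Cbln2 was nearest to Tcf7l2, a transcription factor used here as a marker of the thalamus, at 0.0417. Tcf7l2 had 160, 129 and 150 normalized counts in controls and 145, 108 and 141 in p300-ifKOs, highest and lowest in the same libraries as Cbln2. Other thalamus markers were split. Rgs16 was, like Cbln2, lowest in p300-ifKO replicate 2, but was highest in control replicate 3. Prkcd was lowest in control replicate 1, where Cbln2 was highest. Slitrk6 was highest in p300-ifKO replicate 2, where Cbln2 was lowest, and Tnnt1 was highest in p300-ifKO replicate 3. The second nearest profile to Cbln2 was that of Acer2, at 0.0794. Cbln4 had no neighbor as close, with Ptprc at 0.118 and Ccne2 at 0.128. All profiles share the 6 libraries and their length trend.

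The receptors and partners were expressed throughout. Neurexins, the presynaptic receptors of cerebellins, included Nrxn3 with 58.6 ± 15 and Nrxn2 with 57.5 ± 9 TPM (SD, n = 6). Grid1, which encodes a delta receptor that binds cerebellins on the dendrite, had 48.7 ± 6.51 TPM. The kainate receptor subunits Grik4 and Grik2 had 46.8 ± 3.83 and 26.2 ± 5.38 TPM, and Adgrb3, which encodes Bai3, had 28.9 ± 3.77 TPM. Neo1 and Dcc, receptors of the neogenin family that Cbln4 can bind, had 46 ± 9.17 and 10.7 ± 2.42 TPM.

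None of the 8 receptors and partners passed the adjusted p in DESeq2, and 0 of 8 had an unadjusted p under 0.05. The log2 fold change was negative for 8 of 8, with a median of −0.22, beside −0.046 over all genes tested, and ranged from −0.34 for Dcc to −0.018 for Grik4. Nrxn2 alone had groups that did not overlap (1 of 8, beside 3.42% of all genes in that direction), with 5795, 5489 and 5760 normalized counts in controls and 4214, 5313 and 5000 in p300-ifKOs (log2 fold change −0.23, SE 0.13, unadjusted p 0.0790 and adjusted p 0.991 in DESeq2). Nrxn3 had 5262, 5240 and 5703 normalized counts against 2971, 5756 and 4405, low in replicates 1 and 3 and not in replicate 2, like C1ql3. Grik2, at 2441, 2516 and 2625 against 1670, 2502 and 1994, had the same order of p300-ifKO libraries.

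Grik4, the other kainate receptor subunit, had the log2 fold change closest to 0 of the list, with 1858, 2020 and 1719 normalized counts in controls and 1799, 1917 and 1811 in p300-ifKOs. Without p300-ifKO replicate 2, 3 of the 8 passed, namely Nrxn3, Grik2 and Dcc, all lower, with adjusted p from 0.0244 to 0.0323 in DESeq2, in a fit that called 3.79% of all genes lower. With length offsets 6 of the 8 were negative and the median log2 fold change was −0.086.

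Of 16 other secreted synaptic organizers, such as neuronal pentraxins, Lgi proteins, thrombospondins and glypicans, 0 passed the adjusted p, 11 had a negative and 5 a positive log2 fold change, and the median was −0.079. The lowest was Gpc6, at −0.60 (SE 0.61), with 65.6, 56.7 and 106 normalized counts in controls and 8.59, 91.9 and 50.1 in p300-ifKOs. The highest was Fgf22, at 0.28 (SE 0.34).

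Cell type and region markers were read beside the family. Of 58 marker genes in 13 lists, 0 passed the adjusted p and 3 had an unadjusted p under 0.05, beside 1.32% of all genes. These were Pdzd2 of the dentate granule cell list (log2 fold change −0.45), Coch of the CA3 list (−0.63) and C1qa of the microglia list (0.50). The markers of dentate granule cells, which are known to make C1ql2 and C1ql3, had a summed level of 128 to 170 TPM in controls and 121 to 152 TPM in p300-ifKOs, with a median log2 fold change of −0.11 over 7 genes. Prox1, the defining factor of these cells, had 2042, 2250 and 2883 normalized counts against 1604, 2357 and 2101. In normalized counts, p300-ifKO replicate 1 had the lowest C1ql3 and the highest C1ql2. The granule cell markers were split there, with Prox1 and Pdzd2 at their lowest and Lct and Npnt at their highest of the 6 libraries. The markers of mossy cells stood at 283 to 332 TPM against 290 to 296 TPM (median −0.087 over 5 genes), those of CA3 pyramidal cells at 149 to 183 TPM against 154 to 225 TPM (median 0.24 over 3 genes) and those of CA1 pyramidal cells at 502 to 598 TPM against 436 to 528 TPM (median −0.095 over 4 genes).

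The 7 interneuron markers had a median log2 fold change of −0.055, with a summed level of 1800 to 2210 TPM in controls and 1710 to 2380 TPM in p300-ifKOs. The 4 markers of oligodendrocyte precursors were negative in 4 of 4, with a median of −0.23, and stood at 54.6 TPM in p300-ifKO replicate 1, the library with the highest C1ql1, against 78.8 to 96.3 TPM in the other 5. For the neighbors of the hippocampus, the thalamus markers stood at 29.9 to 34.5 TPM against 30.6 to 37.4 TPM (median −0.12 over 5 genes). The markers of the retrosplenial cortex and subiculum stood at 48.8 to 90.5 TPM against 58.6 to 71.8 TPM (median −0.18 over 4 genes), lowest in control replicate 2, which also had the lowest Cbln1 and Cbln2 of the control group. In the p300-ifKO group, replicate 2 had the lowest Cbln1 and Cbln2 and the highest of these sums, 71.8 TPM.

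Markers of cerebellar granule cells, which make Cbln1 and Cbln3 in large amounts, were at or near 0. Their summed level over 3 genes was 0.0629 to 0.227 TPM in controls and 0.047 to 0.163 TPM in p300-ifKOs, each of the 3 was at 0 in at least 1 library, and Gabra6 reached at most 1.05 normalized counts. Choroid plexus markers varied from 27.2 to 395 TPM in controls and from 105 to 592 TPM in p300-ifKOs (median 0.39 over 5 genes). Microglia markers in sum stood at 278 to 300 TPM against 312 to 374 TPM, which did not overlap (median 0.12 over 4 genes). The 4 were split, with log2 fold changes of 0.50 for C1qa, 0.26 for Tmem119, −0.09 for Cx3cr1 and −0.015 for P2ry12. Each of them alone had overlapping groups. Astrocyte markers stood at 1190 to 1290 TPM against 1050 to 1270 TPM (median −0.076 over 4 genes) and endothelium markers at 98.3 to 101 TPM against 101 to 118 TPM (median −0.16 over 3 genes). The part of these levels in the values of the 7 genes was not tested.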

How the data were processed

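Single-end reads of 50 bases were processed by the authors with FastQC 0.11.8, Trim Galore 0.6.4, STAR 2.6.1 (GRCm38) and Rsubread, after a mapping quality filter. The deposited values are raw read counts over the exons of each gene, given with its exonic length. The quality filter lowers counts of genes with near-identical copies. Unused per-sample columns numbered 0.

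Groups and replicate numbers came from the sample titles. Symbols, coordinates and overlaps came from GENCODE M21 on the same build (99.41% of identifiers had a symbol). All genes were fitted with DESeq2 1.42.0 in R 4.3.3 (two-sided Wald test, no covariate, default filters, Benjamini-Hochberg over 32773 genes, threshold 0.05), as the study used DESeq2. Alternatives used edgeR 4.0.16, limma 3.58.1, sva 3.50.0 and mgcv 1.9.3. The main DESeq2 fit and the edgeR quasi-likelihood fit were also run on simulated data, and the other alternatives were not. The pseudocount for log2 ratios was 1.

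The genes and lists were chosen with earlier results of these data known. Named were all 7 genes, C1ql4, the receptors and partners, the extremes of the other organizers, Ep300, Crebbp and the 2 nearest profiles per gene. Single marker genes and the genes overlapping C1ql3 were named after their values were seen. Some members of the receptor list are not reported here. Whether the same replicate number marked paired mice was not stated in the sources used here.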

Additional observations from a re-analysis of the deposited data

How the results depend on the processing

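For the 7 genes, 18 alternatives gave 126 values, of which 111 kept their direction, 15 changed sign and 1 passed the adjusted p of 0.05. Leaving out each library in turn, the log2 fold change ranged from −0.090 to 0.31 for C1ql1, −0.24 to 0.15 for C1ql2, −1.03 to −0.29 for C1ql3, −0.67 to −0.056 for Cbln1, −0.28 to −0.076 for Cbln2, −0.085 to 0.46 for Cbln3, −0.31 to 0.22 for Cbln4, −0.15 to 0.031 for Adgrb3 and −0.071 to 0.045 for Grik4. Calls then ranged from 0 to 1 among the 7 genes and from 0 to 3 among the receptors and partners, the higher numbers without p300-ifKO replicate 2. With 1 surrogate variable, values that changed sign were −0.11 for C1ql1, 0.16 for Cbln4, 0.053 for Adgrb3 and 0.12 for Gpc6, and with edgeR and 1 surrogate variable, chosen after seeing the data, −0.11, 0.15, 0.053 and 0.11. C1ql2 kept its sign and moved from −0.015 to −0.32 in both. Cbln4 was 0.0050 with edgeR without a filter and 0.0044 with TMM factors in DESeq2. Length offsets gave 0.18 for Adgrb3, 0.060 for Grik4 and 0.17 for Crebbp, and length and GC offsets, chosen after seeing the data, gave −0.087 for C1ql1, 0.21 for Adgrb3, 0.027 for Grik4 and 0.11 for Crebbp. The cause of these changes of sign was not tested, and none of the values that changed sign passed the threshold. Dividing the same counts by only the 908 bases without overlap, chosen after seeing the data, would put C1ql3 at 245 TPM in controls. With the full length it was 87.9 TPM.

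The replicate number as a block gave −0.73 for C1ql3 (unadjusted p 0.00272 and adjusted p 1 in DESeq2) and called 0 of the 7 genes. In that fit Ep300 did not pass either (adjusted p 0.134 in DESeq2). The share of all genes called in it is not given here, so its count is not a result about the 7 genes. Deviations of mice with the same number correlated at 0.27, −0.28 and 0.13 over 17071 genes. These values also carry the length trend of the libraries and cannot decide whether such mice were paired. Depth limited Cbln3 and C1ql4, which had 24 or fewer reads per library.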
